A study of Mus musculus with 24 samples.

Results

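The proteasome subunit genes were followed through RNA sequencing of 24 sorted samples from stem cell-derived motor neuron cultures. They were taken as the entries of the deposited expression table whose symbol is Psma, Psmb, Psmc, Psmd, Psme, Psmf or Psmg followed by a number, which gave 48 of 22889 entries. By role these were 8 core alpha subunits, 7 constitutive core beta subunits, 4 inducible or tissue-restricted beta subunits, 6 ATPases of the regulatory particle, 11 non-ATPase subunits of the regulatory particle, 3 chaperones of regulatory particle assembly, 5 activators or inhibitors that dock on the core, and 4 chaperones of core assembly. All 48 passed the filter on low values in each comparison, and 44 had a mean above 1 RPKM (reads per kilobase of transcript and per unit of mapped reads, a level that is scaled by transcript length and library size).

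Mouse embryonic stem cells were grown as embryoid bodies and patterned for 5 days. Oculomotor cultures came from the Islet1-GFP:NesEPhox2a line, which carries a GFP reporter of Islet1 and a *Phox2a* transgene driven by the Nestin enhancer, and were given the Smoothened agonist SAG at 250 nM and FGF8 at 100 ng/ml. Spinal cultures came from the Hb9-GFP line, which carries a GFP reporter of Hb9 (*Mnx1*) and no *Phox2a* transgene, and were given SAG at 500 nM and retinoic acid at 100 nM. Each culture was sorted into a GFP+ and a GFP- fraction, with 6 samples per fraction. Line, reporter, transgene and patterning agents change together between the cultures, so that their parts in a difference between cultures cannot be told apart. The labels call all samples controls and give replicate numbers, but do not say that the numbers are separate cultures, so the p-values measure the spread between these samples, part of which may be technical.

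The proteasome degrades proteins that carry ubiquitin chains. Its core is a stack of rings, with alpha subunits outside and beta subunits inside, and the beta subunits encoded by *Psmb5*, *Psmb6* and *Psmb7* hold the cutting sites. Under interferon, and in immune cells, these are replaced by the products of *Psmb8*, *Psmb9* and *Psmb10*, which favour peptides for antigen presentation. A regulatory particle, made of ATPases that unfold the substrate and of non-ATPase subunits that bind and remove ubiquitin, caps the core, and dedicated chaperones build both particles. Neurons rely on this system for protein turnover in axons and synapses, and motor neurons in particular accumulate ubiquitin-positive protein deposits in motor neuron disease.

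The depth of each sample, estimated from the step between its lowest RPKM values, was between 752529 and 7675428 mapped reads. Replicates 5 and 6 of every group were deeper (4822576 to 7675428 reads, 8 samples) than replicates 1 to 4 (752529 to 4642207 reads, 16 samples), and both replicate sets are described apart below. What separated the sets is not given in the labels. The paper states that samples were sequenced on different HiSeq models with different read lengths. Its methods do not say which samples went on which. Spinal GFP- replicate 2 stood apart, with 76.3% of its summed RPKM in 10 genes against 0.219% in the 48 proteasome genes. Spinal GFP+ replicate 4 went against its label, with summed levels of 90.5 RPKM over 9 neuron markers and 61.4 RPKM over 10 motor neuron markers, where the other 5 spinal GFP+ samples had at least 468 and 206 RPKM. Spinal GFP- replicate 4 had 102 and 89.9 RPKM over the same lists, above this GFP+ sample. Spinal GFP+ replicate 2 had 31.7% of its summed RPKM in 10 genes. The 2 spinal libraries that stood apart are below GFP- replicate 2 and GFP+ replicate 4. Class medians, class sums and counts of members that rest on these 2 libraries are also given without them. In the oculomotor cultures the GFP+ samples had 379 to 822 RPKM over the motor neuron markers and the GFP- samples had 10.2 to 37.2 RPKM, with no overlap. Pluripotency markers summed to 684 to 9876 RPKM in oculomotor GFP- samples and 0.315 to 259 RPKM in oculomotor GFP+ samples, and reached 12400 RPKM in spinal GFP+ replicate 5. These are bulk samples, in which fewer cells of a type and less RNA per cell cannot be told apart.

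The genes of the core were the most abundant. *Psmb1*, a constitutive beta subunit, had the highest level of all 48, with a mean of 626 ± 295 RPKM (SD, n = 24). It was followed by the alpha subunit gene *Psma2* at 576 ± 406 RPKM and by *Psmb2* at 410.4 ± 372 RPKM. These SDs are large beside the gaps between the means, and the 3 genes did not separate beyond their spread. The other alpha subunits expressed in all tissues ran from 85.1 RPKM (*Psma1*) to 257 RPKM (*Psma6*).

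The regulatory particle genes had lower levels per length. Among the ATPases, the means over all samples ran from 43.0 RPKM (*Psmc2*) to 196 RPKM (*Psmc1*). The non-ATPase subunits ran from 27.3 RPKM for *Psmd11*, a scaffold subunit of the lid, to 120.0 RPKM for *Psmd4*, a ubiquitin receptor. Chaperones of the regulatory particle base were lower still, except for *Psmd10* (gankyrin) at 44.5 RPKM, and *Psmd9* had 4.88 RPKM. Of the core-docking proteins, the activator subunit gene *Psme2* had 60.7 RPKM and the inhibitor gene *Psmf1* had 7.95 RPKM. *Psme2* is nearly identical in sequence to *Psme2b*, which has its own entry in the table, so reads may be split between them. The core assembly chaperones ranged from 9.75 RPKM (*Psmg3*) to 94.7 RPKM (*Psmg4*). Pseudogenes nearly identical to *Psma3*, *Psma4*, *Psma5*, *Psmb5*, *Psmd2* and *Psmd11* are annotated without an entry in the table, and *Gm4950*, which resembles *Psmb3*, has one, so the reads counted for these genes are uncertain.

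Seen by group and replicate set, the 48 genes held a median of 1.04% of the summed RPKM in replicates 1 to 4 (0.219% to 1.76%, n = 16, or 0.817% to 1.76% and a median of 1.10% without the 2 spinal libraries) and of 1.63% in replicates 5 and 6 (1.00% to 1.97%, n = 8). The 8 alpha subunits summed to 1245 ± 624 RPKM in replicates 1 to 4 and 2289.6 ± 209.6 RPKM in replicates 5 and 6 in oculomotor GFP+ samples (mean ± SD, n = 4 and n = 2). In oculomotor GFP- samples the alpha sum was 1330.4 ± 476 RPKM in replicates 1 to 4 and 3168 ± 627 RPKM in replicates 5 and 6. In spinal GFP+ samples it was 1031 ± 184 RPKM in replicates 1 to 4 and 2261 ± 441 RPKM in replicates 5 and 6. The alpha sum was thus higher in replicates 5 and 6 in each of these groups, and in spinal GFP- samples it was 914 ± 266 RPKM in replicates 1 to 4 and 2036 ± 203 RPKM in replicates 5 and 6. Without the libraries that stood apart, the alpha sum of replicates 1 to 4 was 1106 ± 130 RPKM in spinal GFP+ and 1037 ± 121 RPKM in spinal GFP- samples (n = 3 each). The sums of the 11 non-ATPase genes had lower means in replicates 5 and 6 in each group. They were 799 ± 87.3 RPKM in replicates 1 to 4 and 654 ± 75.9 RPKM in replicates 5 and 6 in oculomotor GFP+ and 793 ± 98.7 RPKM in replicates 1 to 4 and 657 ± 23.2 RPKM in replicates 5 and 6 in oculomotor GFP- samples. In the spinal cultures they were 743 ± 232 RPKM in replicates 1 to 4 and 564 ± 88.5 RPKM in replicates 5 and 6 in GFP+ and 641 ± 305 RPKM in replicates 1 to 4 and 540.0 ± 198 RPKM in replicates 5 and 6 in GFP- samples, and those of replicates 1 to 4 were 835 ± 172 and 758 ± 238 RPKM without the libraries that stood apart (n = 3 each).

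**Figure D1:**
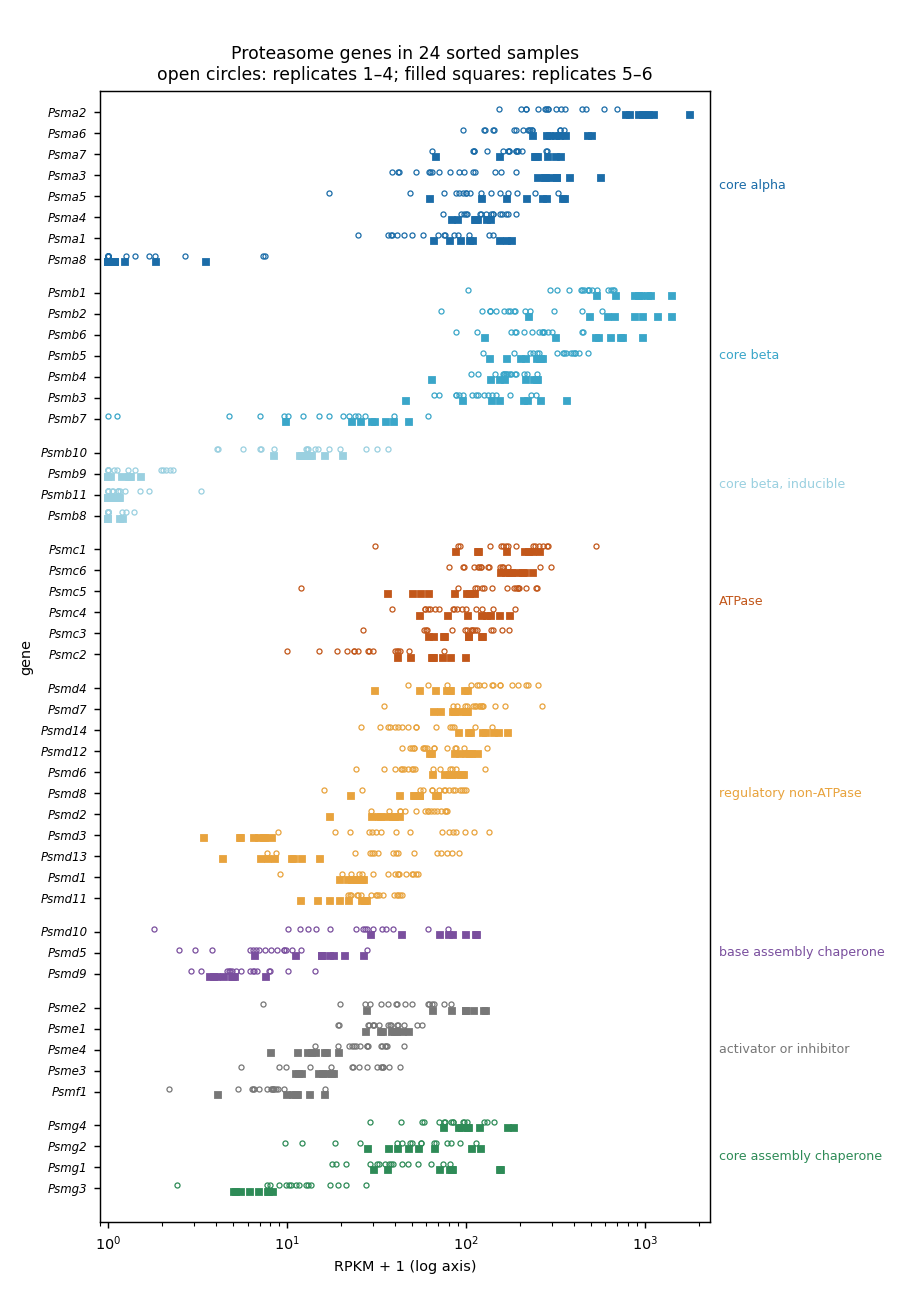
Level of each of the 48 genes in each of the 24 samples, as RPKM + 1 on a log axis, grouped by role. Open circles are the 16 samples of replicates 1 to 4 and filled squares the 8 samples of replicates 5 and 6, and the squares of *Psma2* and *Psma3* lie above all their circles while those of *Psmd3* lie below all of its circles.

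The constitutive catalytic subunits *Psmb5* and *Psmb6* were expressed in every sample and their interferon-inducible replacements were near 0. *Psmb5* (chymotrypsin-like activity) had 276 ± 76.9 RPKM in oculomotor GFP+, 359 ± 86.8 in oculomotor GFP-, 274 ± 112 in spinal GFP+ and 241 ± 93.4 in spinal GFP- samples (SD, n = 6 each). Its replacement *Psmb8* made up at most 0.124% of the *Psmb5* and *Psmb8* RPKM in any sample. *Psmb9*, the replacement of *Psmb6*, made up at most 0.674% of the *Psmb6* and *Psmb9* RPKM. *Psmb6* itself (caspase-like activity) had group means of 407, 498, 279 and 255 RPKM in the same order.

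The third pair behaved otherwise. *Psmb7* (trypsin-like activity) was the lowest constitutive beta subunit, with a mean of 21.5 RPKM over all samples, and *Psmb10*, its replacement, had 13.4 RPKM. The lowest, median and highest shares of *Psmb10* in the RPKM of both genes were 16.5%, 32.4% and 66.7% in oculomotor GFP+ and 26.4%, 31.9% and 81.4% in oculomotor GFP- samples. In spinal GFP+ samples they were 32.9%, 36.7% and 96.0%, and in spinal GFP- samples 13.7%, 45.2% and 100%. All 4 groups overlapped. The highest spinal shares were those of replicate 2, where *Psmb7* was at 0.126 RPKM in the GFP+ and listed at 0 in the GFP- sample, so that they rest on a low denominator. *Psmb7* overlaps an exon of *Nek6* on the opposite strand, and the library chemistry does not mark strand, so reads of the overlap cannot be assigned to either gene. *Psmb11*, the subunit of thymic cortical epithelium, had a mean of 0.212 RPKM and exceeded 1 RPKM in 1 of 24 samples. Of 11 genes of antigen presentation and interferon response, none passed the test in any comparison between groups, 1 (*H2-K1*) was lower in replicates 5 and 6, a call lost under the median-ratio scaling given below, and their summed levels overlapped between the groups (45.3 to 163, 60.9 to 247, 60.8 to 148 and 112 to 552 RPKM in the order above).

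More proteasome genes passed between the replicate sets than in any comparison of sorted groups. With the group in the model, 23 of the 48 proteasome genes passed the test between replicates 5 and 6 and replicates 1 to 4 (limma on log2(RPKM + 1), Benjamini-Hochberg adjusted over all 22179 genes tested, threshold 0.05), where 25.4% of all genes passed. Of the 23, 15 were higher and 8 lower in replicates 5 and 6, against 7.37% and 18.0% of all genes. Nearly all members are abundant genes, and among genes with a mean above 1 RPKM 25 of 44 members passed where 48.6% of 11952 genes did (16 higher and 9 lower, against 13.2% and 35.4%). The median difference of the 48 was 0.25 on this log2 scale and that of all genes tested was -0.10. Core genes that passed in this fit of all genes were all higher, 4 of 8 alpha and 3 of 7 constitutive beta subunits with class medians of 0.83 and 1.05. Of the 7 non-ATPase genes of the regulatory particle that passed, 5 were lower, with a class median of -0.50 over 11 genes, and 2 of these 5 kept the call under the other scaling given below. None of the 4 inducible or tissue-restricted beta subunit genes passed. Without the 2 spinal libraries the alpha and constitutive beta medians were 0.72 and 0.90, and *Psmb5* passed as lower. *Psmb5* also passed as lower among genes with a mean above 1 RPKM. With sample weights *Psmb5* and *Psma4* passed as lower.

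The first fit of the sets takes the 24 fractions as separate samples, although the GFP+ and GFP- fractions of one replicate number deviated together, so its p-values are too small. With the fractions of each culture and replicate number averaged (12 values, 8 against 4), 10 of the 48 genes passed, 6 higher and 4 lower, where 15.2% of all genes passed (4.62% higher and 10.6% lower). The 6 were *Psma2*, *Psma3*, *Psmb2*, *Psmc2*, *Psmd10* and *Psmd14*, and the 4 were *Psmd2*, *Psmd3*, *Psmd13* and *Psme4*. With a correlation of 0.26 estimated between the fractions of a culture, 20 passed (13 higher, 7 lower), where 20.2% of all genes did. The adjusted p-values given next are those of the first fit.

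The alpha subunit gene *Psma3* (chr12:70974621-70996347 on GRCm38) had the largest increase. Its lowest, median and highest levels were 37.5, 75.0 and 189 RPKM in the 16 samples of replicates 1 to 4 and 251, 307 and 564 RPKM in the 8 samples of replicates 5 and 6. The sets did not overlap, and the difference was 2.04 ± 0.27 (SE, adjusted p = 9.61e-06). *Psma2* also separated without overlap, with 151, 287 and 697 RPKM against 776, 992 and 1781 RPKM and a difference of 1.72 ± 0.24 (adjusted p = 1.74e-05). *Psmb2* went from 71.6, 173 and 577 RPKM to 225, 778 and 1418 RPKM, with some overlap and a difference of 1.93 ± 0.30 (adjusted p = 5.81e-05). Of the remaining core genes that passed, *Psma1*, *Psma6*, *Psmb1* and *Psmb6* were higher by 0.88, 0.79, 1.05 and 1.12. *Psmb5* gave -0.50 ± 0.21 and did not pass in this fit (adjusted p = 0.0765), though it passed as lower in the alternatives named above.

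The largest decrease was that of *Psmd3*, a lid subunit (chr11:98682554-98695979). It had 7.85, 43.5 and 132 RPKM in replicates 1 to 4 and 2.44, 5.77 and 7.23 RPKM in replicates 5 and 6, a difference of -2.89 ± 0.40 (adjusted p = 1.53e-05), and every sample of the later numbers lay below every sample of the earlier ones. The lid subunit gene *Psmd13* had 6.75, 38.7 and 90.1 RPKM against 3.38, 8.60 and 14.2 RPKM, with overlap, a difference of -2.04 ± 0.39 and adjusted p = 0.000466. Its exons overlap those of *Sirt3* on the opposite strand. *Psmd2*, a scaffold of the regulatory particle base, and the ubiquitin receptor *Psmd4* fell by 0.77 and 0.90, and *Psmd11* fell by 0.63. In the same particle, the deubiquitinase gene *Psmd14* rose by 1.19 and *Psmd6* by 0.63. The ATPases did not move together, since *Psmc2* rose by 1.19 and *Psmc5* fell by 0.95 (adjusted p = 0.0483), a call that was kept in 4 of 24 fits that left out 1 sample. Of the 48 genes, 2 lay wholly above and 1 wholly below in replicates 5 and 6, where 1.69% of all genes separated in either direction.

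Helpers of the proteasome were split as well, in the fit of 24 samples, where 7.37% of all genes rose and 18.0% fell. Among genes with a mean above 1 RPKM these shares were 13.2% and 35.4%. The base chaperone genes *Psmd10* and *Psmd5* rose by 1.75 and 1.05, and the third, *Psmd9*, gave -0.33 and did not pass. *Psme2* rose by 1.07 and *Psme4*, a large nuclear activator, fell by 1.00. The core chaperones *Psmg1* and *Psmg4* rose by 1.00 and 0.52 and *Psmg3* fell by 0.81. Among 10 proteasome partners in the table, *Pomp*, the maturation factor of the core, and the deubiquitinase gene *Uchl5* rose (1.10 and 0.72), and the ubiquitin receptor gene *Adrm1* and the ubiquitin ligase gene *Ube3c* fell by 1.15 and 0.57. Of 7 regulators of proteasome gene expression, *Nfe2l1*, the factor that raises transcription of proteasome genes when proteasome activity drops, fell by 1.44, and *Ddi2*, the protease that releases it, fell by 1.00. *Mafg*, a small MAF partner, fell by 2.11, and *Ngly1*, the enzyme that removes sugar chains from the *Nfe2l1* protein, rose by 0.83. Of 13 genes of ubiquitin supply and shuttling, 2 rose (*Ubb* and *Ufd1l*) and 7 fell (*Rps27a*, *Uba6*, *Rad23b*, *Ubqln1*, *Ubqln4*, *Vcp* and *Nploc4*). With median-ratio scaling, described next, 3 partners rose and 1 fell, 1 regulator rose and 3 fell, and 2 ubiquitin genes rose and 5 fell (without *Rps27a* and *Uba6*). With the fractions averaged these counts were 0 and 1, 0 and 3, and 2 and 5. Over all genes 13.1% rose and 11.0% fell with the scaling, and 4.62% rose and 10.6% fell with the fractions averaged.

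**Figure D2:**
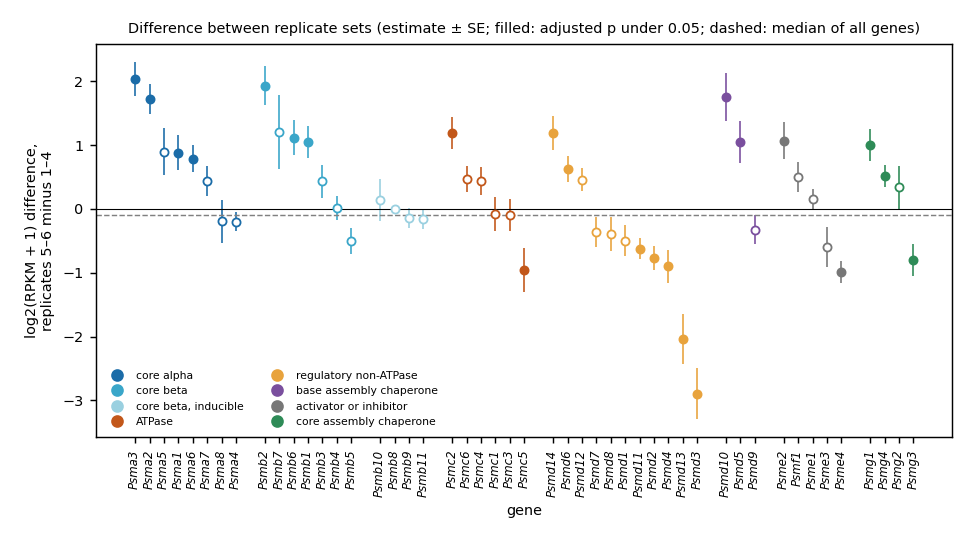
Difference between replicates 5 and 6 and replicates 1 to 4 for each of the 48 genes, in log2(RPKM + 1) with SE, with the group in the model. Filled points are the 23 genes that passed the test, of which 15 lie above 0 and 8 below, and the dashed line is the median of all genes tested at -0.10.

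The split between higher and lower calls depended on how samples were scaled. When each sample was divided by its median ratio to the geometric mean of all samples, 28 of the 48 genes passed, 25 higher and 3 lower, and the 3 were *Psmd3*, *Psmd13* and *Psme4*. The split moved in the same direction over all genes, of which 24.1% passed, 13.1% higher and 11.0% lower. The median difference of the 48 was then 0.69 and that of all genes -0.04. The 15 increases above kept their calls under this scaling, while *Psmc5*, *Psmd2*, *Psmd4*, *Psmd11* and *Psmg3* did not. Leaving out 1 sample at a time gave 20 to 27 genes, the fewest without oculomotor GFP- replicate 5 and the most without spinal GFP+ replicate 2. It was 26 without spinal GFP- replicate 2 and 23 without spinal GFP+ replicate 4, and without both 26 (15 higher and 11 lower, where 29.5% of all genes passed).

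Transcript composition moved with the set difference. The 15 genes that rose had a median GC content of 46.6% in their principal transcript and the 8 that fell had 52.5%. Over the 48 genes the set difference had a Spearman correlation of -0.40 with GC content (Pearson -0.46) and of -0.27 with transcript length. Over 17946 tested genes with a coding transcript the same Spearman correlations were -0.40 and -0.10. These are correlations across genes, which share the same libraries and are not independent replicates. Depth also differed between the sets, as given above, and the mitochondrial share of the summed RPKM was 9.27% ± 4.92 in replicates 1 to 4 and 12.6% ± 3.33 in replicates 5 and 6 (SD, n = 16 and n = 8).

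Some cell type markers passed between the sets too. Over all genes 7.37% were higher and 18.0% lower, and among genes with a mean above 1 RPKM 13.2% and 35.4%. A single call in a short list is therefore not read as a change of that cell type. Of 12 progenitor and proliferation markers, 6 were lower in replicates 5 and 6 (*Sox2*, *Hes5*, *Olig2*, *Mki67*, *Top2a* and *Mcm2*, with a median of -1.12 over the list), and the list summed to 246 to 1246 RPKM in replicates 1 to 4 and 169 to 769 RPKM in replicates 5 and 6. Of 9 neuron markers 3 were higher (*Snap25*, *Nefl* and *Map2*) and 1 was lower (*Elavl3*), with a median of 0.70. Of 10 motor neuron markers 1 was higher (*Slc5a7*) and 1 lower (*Phox2a*), and *Pou5f1* and *Mbp* were lower among 6 pluripotency and 5 glia markers. No endoderm or blood and immune marker passed. With the fractions averaged, 5 progenitor and proliferation markers and *Elavl3* were lower and *Snap25* and *Slc5a7* higher, where 10.6% of all genes were lower and 4.62% higher. The part of sequencer, read length, depth, mitochondrial share, transcript composition and cell composition in the set difference was not tested.

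**Figure D3:**
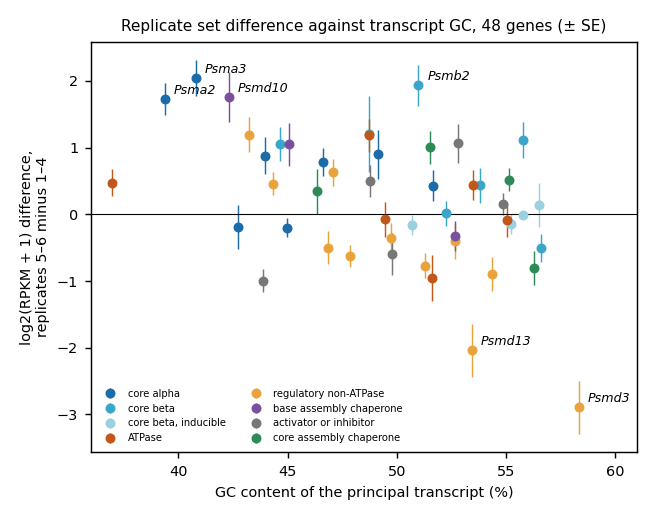
Set difference (replicates 5 and 6 minus 1 to 4, in log2(RPKM + 1) with SE) of the 48 genes against the GC content of their principal transcript in percent, coloured by role. *Psma2* and *Psma3* sit at the upper left and *Psmd3* at the lower right, with a Spearman correlation of -0.40 over the 48 genes.

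Within groups, proteasome genes went up and down together from sample to sample. After the means of group and replicate set were removed, the median Pearson correlation between 2 of the 44 genes above 1 RPKM was 0.52 over the 24 samples, with 91.4% of pairs above 0. The median between these genes and 11907 other genes was 0.17. Pairs of constitutive beta subunits had a median of 0.75 and pairs of alpha subunits 0.63, whereas the 4 core assembly chaperones had 0.34. Without spinal GFP- replicate 2 and GFP+ replicate 4 the median over the members was 0.41 and that with other genes 0.088 (22 samples), and the non-ATPase genes went from 0.54 to 0.30. All points share the library and its depth, so this is a description of these samples.

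The first comparison of fractions asked which genes mark the sorted motor neurons of the oculomotor cultures. In oculomotor GFP+ against GFP- samples, the assembly chaperones of the core stood lowest. *Psmg4* passed the test and was lower in the GFP+ fraction, and it was the only one of the 48 genes to pass, where 6.15% of all 22179 genes tested passed. Over all 48 genes 20 differences were positive and 28 negative, with a median of -0.09 against 0.00 for all genes, while the median of the 4 core assembly chaperones was -0.89. By class the medians were -0.24 for alpha, -0.26 for constitutive beta, 0.01 for ATPase and 0.03 for non-ATPase genes. All 5 activator or inhibitor genes had positive differences (median 0.33) and none of them passed.

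*Psmg4* (chr13:34162964-34178173) encodes a small protein that pairs with that of *Psmg3* to seed the alpha ring. Its lowest, median and highest levels were 42.1, 77.6 and 96.7 RPKM in oculomotor GFP+ samples and 101, 136 and 185 RPKM in oculomotor GFP- samples. The fractions did not overlap, as was so for 6.52% of all genes, and the difference was -0.97 ± 0.28 (SE, n = 6 each, adjusted p = 0.0408). It was -0.89 within replicates 1 to 4 and -1.11 within replicates 5 and 6. Fractions of the same replicate number deviated together from their group means, and with the culture and replicate number as a block the adjusted p was 0.00504. When 1 of the 24 samples was left out, the adjusted p ranged from 0.0140 to 0.114 and stayed under the threshold in 16 of 24 fits. Every fit without a spinal sample kept the call, but those samples enter only the estimate of the spread. The 8 fits that lost it all left out 1 of the 6 GFP+ or 6 GFP- oculomotor samples. The adjusted p went to between 0.0563 and 0.114 when oculomotor GFP- replicate 1, 3, 4, 5 or 6 or GFP+ replicate 2, 4 or 6 was left out. The call was also lost with median-ratio scaling (-1.06, adjusted p = 0.0858) and with an offset of 0.1 RPKM in place of 1 (adjusted p = 0.0523).

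With the block, 5 of the 48 genes passed, all lower in GFP+, where 16.4% of all genes passed. These were *Psmg4*, *Psmg2*, *Psmg1*, *Psmb9* and *Psma1*. *Psmg2* and *Psmg1* encode the other chaperone pair, which holds the growing alpha ring. *Psmg2* had 8.68, 45.8 and 66.5 RPKM in GFP+ and 54.6, 99.3 and 119.9 RPKM in GFP- samples, with overlap, and differed by -1.25 ± 0.46 (adjusted p = 0.114, or 0.00275 with the block). *Psmg1* had 16.8, 54.5 and 83.6 RPKM against 37.0, 76.9 and 155 RPKM, with wide overlap between the fractions, and differed by -0.82 ± 0.44 (adjusted p = 0.340, or 0.00316 with the block). Taken by replicate number, all 3 were lower in the GFP+ than in the GFP- sample in 6 of 6 pairs. *Psmg3* was at 5.20, 9.0 and 26.5 RPKM against 5.95, 14.2 and 20.2 RPKM and overlapped fully (-0.24 ± 0.40, adjusted p = 0.899), and its exons overlap those of *Gm26938* on the same strand.

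In all, 7 of the 48 genes were lower in GFP+ in 6 of 6 pairs (*Psma6*, *Psmb3*, *Psmb5*, *Psmb9*, *Psmg1*, *Psmg2* and *Psmg4*), where 11.2% of all genes were. A further 5 were higher in 6 of 6 pairs (*Psma4*, *Psmc5*, *Psmd10*, *Psme1* and *Psme2*), where 12.0% of all genes were. Both counts were near these background shares. *Psmb9* lay between 0 and 0.412 RPKM in GFP+ and between 0.286 and 1.22 RPKM in GFP- samples, so its difference (-0.62 ± 0.21, adjusted p = 0.0768, or 0.00279 with the block) concerns a gene that is nearly silent in both. It overlaps an exon of *Tap1* on the opposite strand. *Psma1* differed by -0.62 ± 0.44 (adjusted p = 0.545, or 0.0309 with the block).

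Among helpers in the same comparison, *Zfand5*, a zinc finger protein that binds the proteasome, was higher in GFP+ by 1.30 ± 0.31 (adjusted p = 0.0127). It had 32.1, 44.0 and 50.0 RPKM in GFP+ and 11.1, 16.0 and 24.9 RPKM in GFP- samples. It was 1 of 10 partners to pass. Of the 7 regulators only *Maf* passed, at 1.84, 4.28 and 5.74 RPKM in GFP+ against 0.293, 0.636 and 1.65 RPKM in GFP- (1.43 ± 0.33, adjusted p = 0.00964), and it is a large MAF factor with roles in differentiation. None of the 13 ubiquitin genes passed. Cell composition moved with the fractions. Neuron markers passed in 9 of 9 genes and motor neuron markers in 7 of 10, all higher in GFP+, and 6 of 12 progenitor and proliferation markers and 5 of 6 pluripotency markers were lower. The progenitor and proliferation list summed to 169 to 595 RPKM in GFP+ and 411 to 785 RPKM in GFP- samples. The part of cell composition in the chaperone levels was not tested.

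**Figure D4:**
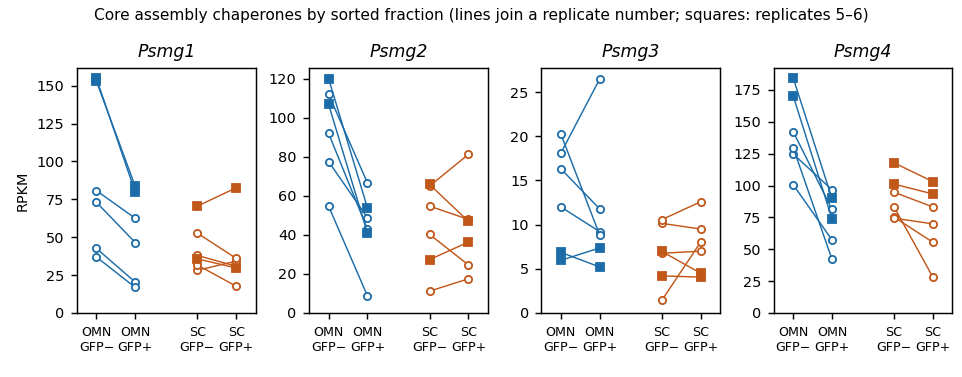
Level in RPKM of the core assembly chaperones *Psmg1*, *Psmg2*, *Psmg3* and *Psmg4* in the GFP- and GFP+ fractions of oculomotor (OMN) and spinal (SC) cultures, with lines joining samples of the same replicate number and squares for replicates 5 and 6. All 6 oculomotor lines of *Psmg1*, *Psmg2* and *Psmg4* go down from GFP- to GFP+, and so do all 6 spinal lines of *Psmg4*.

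The promoters of *Psmg1*, *Psmg3* and *Psmg4* are shown, and *Psmg2* had none among the RefSeq promoters used. The choice was made because, of all classes, the core chaperones had the lowest median difference between the oculomotor GFP+ and GFP- fractions. *Psmg3*, which did not separate the fractions, can be set beside the other promoters. Each is the 250 bases before the RefSeq transcription start on GRCm38.p6, written 5′ to 3′ on the strand of the gene. That of *Psmg1* lies at chr16:95990961-95991210 on the minus strand, that of *Psmg3* at chr5:139826895-139827144 on the minus strand and that of *Psmg4* at chr13:34162714-34162963 on the plus strand. Capitals mark matches, on either strand, to the antioxidant response element TGACNNNGC, the CCAAT box or the GC box GGGCGG.
Psmg1: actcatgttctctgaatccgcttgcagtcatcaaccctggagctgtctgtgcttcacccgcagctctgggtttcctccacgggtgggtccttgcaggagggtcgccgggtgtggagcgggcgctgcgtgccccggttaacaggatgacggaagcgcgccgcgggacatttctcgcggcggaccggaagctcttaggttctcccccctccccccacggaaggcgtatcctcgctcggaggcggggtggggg
Psmg3: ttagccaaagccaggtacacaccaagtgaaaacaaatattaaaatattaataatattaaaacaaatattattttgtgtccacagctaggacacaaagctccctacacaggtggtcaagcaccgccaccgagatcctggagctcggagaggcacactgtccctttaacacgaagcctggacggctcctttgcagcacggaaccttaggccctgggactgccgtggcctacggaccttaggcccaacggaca
Psmg4: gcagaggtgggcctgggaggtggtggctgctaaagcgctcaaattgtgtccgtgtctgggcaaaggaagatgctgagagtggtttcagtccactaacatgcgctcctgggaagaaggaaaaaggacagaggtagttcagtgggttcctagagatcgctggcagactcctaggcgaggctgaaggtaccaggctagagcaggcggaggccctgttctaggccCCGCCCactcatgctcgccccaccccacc

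The *Psmg4* window held 1 GC box and those of *Psmg1* and *Psmg3* held no match, which says only that these letters do not stand there. Over the windows of all members with a RefSeq promoter (40 of 48 genes, 43 promoters, each with 250 bases before and 50 after the start), the antioxidant response element stood in 6 of 43 (14.0%, against 12.4% of 32851 promoters). The CCAAT box stood in 14 (32.6%, against 37.4%) and the GC box in 24 (55.8%, against 35.7%). The antioxidant response element is the letter pattern bound by the factor that *Nfe2l1* encodes together with small MAF proteins. A match is a description of letters and not of binding.

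In the spinal cultures no proteasome gene passed between GFP+ and GFP- samples (limma, 0 of 48, and 0 of 48 at an unadjusted p under 0.05). Of all 22179 genes tested, 1.23% passed and 2315 had an unadjusted p under 0.05. Of the 48 genes, 1 was lower in GFP+ in 6 of 6 pairs, and the share of all genes was not computed for the spinal pairs. This gene was *Psmg4*, at 27.9, 76.5 and 103 RPKM in GFP+ and 74.4, 88.9 and 118 RPKM in GFP- samples. Its fractions overlapped, and the difference was -0.43 ± 0.28 (adjusted p = 0.666). *Psmg1* and *Psmg2* gave -0.23 ± 0.44 and -0.01 ± 0.46. The largest differences were those of the ATPase gene *Psmc5* (0.79 ± 0.53, adjusted p = 0.672) and of *Psmd10* (0.65 ± 0.69, adjusted p = 0.829). Of the 48 differences 39 were positive, with a median of 0.18, but without spinal GFP- replicate 2 only 20 were, with a median of -0.04. Without spinal GFP+ replicate 4 it was 37, with a median of 0.26, without both 26, with a median of 0.05, and with sample weights 20, with a median of -0.05. *Psmg2* also changed sign when single samples were left out.

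Whether the fraction step differed between the cultures was tested by the interaction. No proteasome gene passed (limma, 0 of 48, and 0 at an unadjusted p under 0.05). Of all 22179 genes tested, 0.320% passed and 1582 had an unadjusted p under 0.05. *Psmg2* had the largest interaction, -1.25 ± 0.64 (adjusted p = 0.736, or 0.0740 with the block), followed by *Psma8* at -0.89 ± 0.62 (adjusted p = 0.823). That of *Psmg4* was -0.54 ± 0.40 (adjusted p = 0.835), so its lower level in the oculomotor GFP+ fraction was not shown to differ from the spinal step. Over the 48 genes 9 interactions were positive, with a median of -0.29, and without spinal GFP- replicate 2 it was 18, with a median of -0.10. Without spinal GFP+ replicate 4 it was 7, with a median of -0.41, without both 15, with a median of -0.17, and with sample weights 26, with a median of 0.04.

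The comparison of cultures asked how oculomotor and spinal cells differ. Between the GFP+ fractions no proteasome gene passed (limma, 0 of 48, with 3 at an unadjusted p under 0.05), where 0.603% of 19240 genes passed and 1951 had an unadjusted p under 0.05. Most members were on the oculomotor side, 37 of 48 with a median of 0.32, against a median of -0.04 for all genes. The medians were 0.30 within replicates 1 to 4 and 0.32 within replicates 5 and 6, and 0.25 without spinal GFP+ replicate 4 (38 of the 47 members then tested positive). No member had both fractions apart without overlap, where 1.43% of all genes did. Among the classes, the base assembly chaperones (2 of 3 positive, median 0.51), the ATPases (5 of 6, 0.44), the activators or inhibitors (5 of 5, 0.41) and the constitutive beta subunits (7 of 7, 0.38) leaned to the oculomotor side. Smaller medians were those of the core assembly chaperones (3 of 4, 0.21), the non-ATPase genes (8 of 11, 0.13) and the inducible or tissue-restricted beta subunits (2 of 4, 0.11). The alpha subunits did not lean (5 of 8, 0.05). Without spinal GFP+ replicate 4 the medians of the constitutive beta, ATPase and alpha genes were 0.25, 0.30 and -0.11, with 7 of 7, 5 of 6 and 3 of 8 positive.

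Between the GFP- fractions most members were on the oculomotor side as well, by an amount that rested in part on 1 library. No gene passed (limma, 0 of 48, with 11 at an unadjusted p under 0.05), where 0.960% of all genes passed and 2500 of 22179 had an unadjusted p under 0.05. Positive differences were seen in 45 of 48 genes, with a median of 0.55 against -0.04 for all genes. The median was 0.57 within replicates 1 to 4 and 0.46 within replicates 5 and 6, but it was 0.30, with 44 of 48 positive, without spinal GFP- replicate 2, and 0.28 with sample weights. These are near the medians of the GFP+ fractions, 0.32 and, with sample weights, 0.30. The constitutive beta subunits and the core assembly chaperones both had a median of 0.93, with 7 of 7 and 4 of 4 positive, and the alpha subunits had 0.49. Without spinal GFP- replicate 2 they were 0.54, 0.73 and 0.34, with the same counts positive. The same oculomotor GFP- samples enter this comparison and that of the oculomotor fractions, so the chaperone values of both are not independent.

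**Figure D5:**
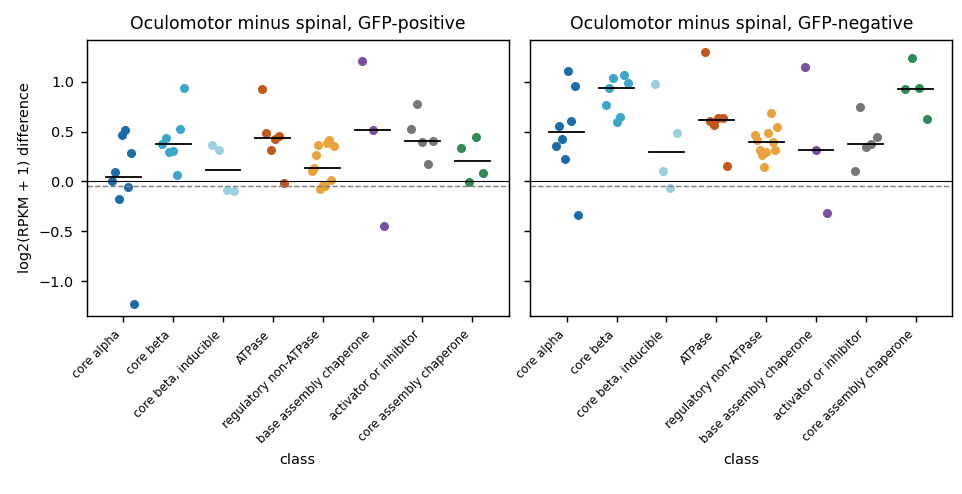
Difference between oculomotor and spinal samples in log2(RPKM + 1) for each proteasome gene (points) by class, in the GFP+ fractions at left and the GFP- fractions at right, with class medians as black bars and the median of all genes as a dashed line. Of the 48 points 37 lie above 0 at left and 45 at right, and none passed the test. Without the libraries that stood apart the medians over the members are 0.25 at left and 0.30 at right.

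*Psmc1* (chr12:100110154-100123405), an ATPase gene of the regulatory particle base, showed the largest difference of the GFP- fractions. It had 213, 253 and 285 RPKM in oculomotor GFP- and 30.0, 113 and 225 RPKM in spinal GFP- samples, and the fractions overlapped only through spinal replicate 5. The difference was 1.30 ± 0.36 (adjusted p = 0.0952), 1.61 within replicates 1 to 4 and 0.68 within replicates 5 and 6. Without spinal GFP- replicate 5 the adjusted p was 0.0428, and without replicate 2 the difference was 0.95 with an adjusted p of 0.151, so whether it passed depended on single samples. In the GFP+ fractions *Psmc1* had 167, 248 and 529 RPKM in oculomotor and 89.2, 138 and 170.1 RPKM in spinal samples, a difference of 0.93 ± 0.32 (adjusted p = 0.284). Processed pseudogenes nearly identical to *Psmc1* exist in the annotation and have no entry in the table, so the counting of their reads is uncertain. Its promoter, at chr12:100109952-100110201 on the plus strand of GRCm38.p6, is shown with the same marking because this gene differed most between the GFP- fractions, and it held 1 CCAAT box.
Psmc1: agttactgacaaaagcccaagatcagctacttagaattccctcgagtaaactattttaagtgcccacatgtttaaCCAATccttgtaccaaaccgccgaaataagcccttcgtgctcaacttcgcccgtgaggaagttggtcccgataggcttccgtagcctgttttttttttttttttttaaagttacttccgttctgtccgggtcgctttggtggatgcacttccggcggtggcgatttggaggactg

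*Psmg2* had the next largest difference of the GFP- fractions, 1.24 ± 0.46 (adjusted p = 0.262). In the GFP+ fractions the second largest was that of *Psmd10*, at 26.1, 69.2 and 114 RPKM in oculomotor and 9.06, 29.0 and 79.2 RPKM in spinal samples (1.20 ± 0.52, adjusted p = 0.448). In both groups the 3 highest values were those of replicates 5, 6 and 1, and the ranges overlapped widely.

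*Psma8*, the alpha subunit of the testis proteasome that stands in for *Psma7*, had the largest difference of the GFP+ fractions in size, -1.22 ± 0.39 (adjusted p = 0.248). It was listed at 0 in all 6 oculomotor GFP+ samples and had 0, 1.27 and 6.35 RPKM in spinal GFP+ samples as lowest, median and highest levels. In oculomotor GFP- samples it reached 0.814 RPKM and in spinal GFP- samples 6.53 RPKM. The highest value in each spinal fraction was that of replicate 4, and without spinal GFP+ replicate 4 the difference was -0.89 (adjusted p = 0.225). *Psma8* made up at most 5.65% of the *Psma7* and *Psma8* RPKM in any sample. Germline genes moved with it. A list of 12 summed to 0.271 to 4.31 RPKM in oculomotor GFP+ and to 13.7 to 117 RPKM in spinal GFP+ samples, with 117 RPKM in replicate 4, and *Rec8*, a meiotic cohesin subunit gene, passed (-3.14 ± 0.55, adjusted p = 0.0199). The germ cell markers *Dazl* and *Ddx4* reached 21.2 and 17.4 RPKM in spinal GFP+ samples. The part of these genes in the *Psma8* levels was not tested.

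Of the partner, regulator and ubiquitin lists, no gene passed in the spinal fractions, in the interaction or in either comparison of cultures. Cell type markers differed between the cultures too, but pluripotency and neuron markers went in opposite directions in the GFP+ and GFP- fractions. Between the GFP+ fractions, pluripotency markers were on the oculomotor side in 0 of 6 genes (median -1.74) and progenitor and proliferation markers in 1 of 12 (-0.79). Neuron markers were on that side in 7 of 9 genes (1.29), and no gene of these lists passed. Between the GFP- fractions, pluripotency markers were on the oculomotor side in 6 of 6 genes, with a median of 2.48, and *Tdgf1* passed (4.00 ± 0.84, adjusted p = 0.0178). They summed to 684, 6437 and 9876 RPKM (lowest, median and highest) in oculomotor GFP- and 74.4, 231 and 5785 RPKM in spinal GFP- samples. Neuron markers of the GFP- fractions were on the spinal side in 8 of 9 genes, with a median of -1.91, and none passed. Their sums were at most 68.3 RPKM in oculomotor and 64.6 to 293 RPKM in spinal GFP- samples. Without spinal GFP- replicate 2 the 2 medians were 2.62 and -2.11. Of 6 endoderm markers, 3 passed as lower in oculomotor than in spinal GFP- samples, where 1 of the 6 differences was positive. In spinal GFP+ against GFP- samples 4 of the 6 passed as lower and 0 differences were positive. The endoderm markers summed to 21.1 to 51.5 RPKM in oculomotor GFP- and 5.47 to 318 RPKM in spinal GFP- samples. Blood and immune markers passed in no comparison, and 5 glia markers summed to at most 10.1 RPKM in any sample. The part of these cell types in the differences between the cultures was not tested.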

How the data were processed

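Poly(A) RNA of 24 sorted samples (4 groups of 6) was prepared without extraction by SMART-seq2 with Tn5, a chemistry that keeps no strand. The authors aligned reads with HISAT2 (2.0.3 in the submitters' notes, to mm10/GRCm38) and deposited RPKM per gene, computed with rpkmforgenes. The gene annotation is not given in the sources used here. The groups come from the sample titles, and the columns from their names.

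RPKM values were taken as log2(RPKM + 1), so differences understate the change of low genes. Genes above 0 RPKM in at least 2 fitted samples were tested with limma 3.58.1 (R 4.3.3, variance trend), with Benjamini-Hochberg adjustment over all tested genes and a threshold of 0.05, two-sided. The GFP+ cultures were compared in their own 12 samples, the other comparisons in all 24. The procedure was tested on simulated data with a log2 change of 2. It recovered 34.5% of the changed genes for the interaction and 98.5% for the replicate sets. For the 4 comparisons of groups it recovered 70.5% (GFP+ cultures) to 81.5% (GFP- cultures). Counts of genes that passed are therefore not alike in power between comparisons. The changed genes were drawn only from well-expressed genes with a small spread. Samples were drawn independently, without the shared deviation of paired fractions. The rates thus do not give the power for genes at low levels or for smaller changes. Low values were whole multiples of 1 read (within 2%) for 95.8% to 97.8% of values, which gave the depth. No count test was run on them, since RPKM steps depend on the transcript length used.

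Fractions of one replicate number were taken as paired: over 11951 genes above 1 RPKM, their deviations from group means correlated at 0.38 to 0.73 in oculomotor and 0.42 to 0.66 in spinal cultures, over 0.1 in 6 of 6 pairs each. The difference between replicate sets enters these values, and between the cultures they reached 0.71 (GFP+) and 0.61 (GFP-). The GFP+ sample was closest to the GFP- sample of its own number in 6 of 6 oculomotor and 5 of 6 spinal pairs. With the replicate set in the model, the correlation estimated between fractions of a culture was 0.26. The pairing comes from the data and the shared number, since the labels name no shared culture.

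The members, the lists (proteasome partners and regulators, ubiquitin, antigen presentation, germline and cell type markers) and the tests were chosen with earlier results of these data known. One gene of the ubiquitin list and 1 of the glia list are not reported here. Named genes were those that passed in any comparison, the catalytic subunits with their replacements, *Psma8* and *Psmb11*, the highest and lowest of each class, and the 2 largest differences of each comparison. Genes lower or higher in every pair, the other core chaperones, *Psmd9*, *Psmb5* in the set comparison and *Psmg4* outside the oculomotor cultures were named after their values were seen. GC content, length, overlaps and near-identical transcripts (BLAST 2.17.0, at least 95% over 150 bases) came from GENCODE on GRCm38, and promoters from RefSeq (GRCm38.p6). Alternatives covered the offset, the filter, scaling, sample weights, the replicate block, the replicate sets, the samples fitted, leaving out each sample and, in the set comparison, averaged or correlated fractions of one culture (limma, duplicateCorrelation).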

Additional observations from a re-analysis of the deposited data

Results flagged for a closer look

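In 7 of 134 groups of 6 samples tested (34 genes), the highest or lowest sample stood apart from the others by more than the critical value of Dixon's ratio, and chance marks about 1 in 20 groups. Of these, 3 were the highest values of genes at low levels in replicate 4 of the spinal cultures. *Psma8* was at 6.53 RPKM in spinal GFP- replicate 4 against 0 to 0.698 RPKM in the other 5 samples. *Psmb9* was at 1.29 RPKM in the same sample, against 0 to 0.310 RPKM, and at 0.979 RPKM in spinal GFP+ replicate 4, against 0 to 0.189 RPKM. *Psmb7* was at 0.126 RPKM in spinal GFP+ replicate 2, where the others had 9.12 to 30.0 RPKM. *Psmb8* was at 0.252 RPKM in oculomotor GFP- replicate 1 and listed at 0 in the other 5. *Psmb11* was at 2.30 RPKM in oculomotor GFP+ replicate 3, against 0 to 0.511 RPKM. *Psmg2* was at 8.68 RPKM in oculomotor GFP+ replicate 4, against 40.8 to 66.5 RPKM. The cause was not tested for any of these.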

How the results depend on the processing

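Of the differences given with a value for single members, 2 turned their direction, and neither had passed. That of *Psmg2* between the spinal fractions (-0.01) was 0.011 in replicates 1 to 4 alone and went from -0.34 to 0.21 when 1 sample was left out, and that of *Psmd9* between the replicate sets was 0.037 with median-ratio scaling. The counts of 0 genes between the GFP+ cultures and between the spinal fractions were 0 under every alternative. Between the replicate sets the count of 23 went to 35 with sample weights (21 higher, 14 lower, where 37.3% of all genes passed), to 10 with the fractions of each culture averaged (15.2% of all genes), and to between 20 and 27 when 1 sample was left out. Between the oculomotor fractions the count of 1 went to 0 with an offset of 0.1 RPKM, in replicates 1 to 4 alone and in replicates 5 and 6 alone, where fewer samples were fitted. It went to 2 in a fit of the 12 oculomotor samples (12.6% of all genes passed) and without the 2 spinal libraries that stood apart (8.01%), to 3 with sample weights (17.1%), to 5 with the replicate block (16.4%), to 8 with the block and median-ratio scaling together (1 higher, 7 lower, against 18.4%), each a smaller share of the members than of all genes, and to between 0 and 2 when 1 sample was left out, the 2 without spinal GFP+ or GFP- replicate 4. With median-ratio scaling it was 1, and this was *Psmb9* in place of *Psmg4*. Between the GFP- cultures the count of 0 went to 1 with median-ratio scaling (*Psmc1*, against 1.28% of all genes), to 8 with the block and that scaling together (3.85%), and to between 0 and 1 when 1 sample was left out. Replicate numbers did not pair the cultures (correlations over 0.1 in 4 of 6 pairs of GFP+ and of GFP- samples, with 1 and 2 of 6 samples closest to their own number), and a block of replicate number gave 3 genes between the GFP- cultures (2.54%) and 0 between the GFP+ cultures. The interaction gave 1 gene (*Psmg2*) with the block and median-ratio scaling together, where 2.71% of all genes passed, and 0 otherwise. The block changed no other call. The block with scaling, replicates 5 and 6 alone, the averaged or correlated fractions and the joint omission of 2 libraries were chosen after seeing the data. Except where stated, the cause was not tested. The number of reads is an estimate and genes under about 1 RPKM rest on few reads, which limits the values of *Psmb8*, *Psmb9*, *Psmb11* and *Psma8*.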
